A study of Mus musculus with 12 samples.

Results

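The 9 transcripts described here, *Chrac1*, *Hilpda*, *2300002M23Rik*, *Iqcf1*, *Rasl2-9*, *Dyrk3*, *Gm19299*, *Mocs1* and *1700030A11Rik*, were chosen by their measured values from the 24259 gene symbols of a polysome profiling experiment on mouse oocytes. They were among those with the largest differences between the polysome and the RNP pool of a sucrose gradient, or with the largest changes of the polysome-to-RNP ratio between genotypes. *Chrac1*, *Hilpda*, *Iqcf1* and *Rasl2-9* were picked from the WT pools, *2300002M23Rik*, *Dyrk3* and *Gm19299* from the KO pools, and *Mocs1* and *1700030A11Rik* from the ratio. The differences that chose a transcript are given below as a description, without a test.

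In a sucrose gradient, mRNAs that carry many ribosomes sediment to the dense polysome fractions, while mRNAs that are bound by proteins and carry few or no ribosomes stay in the light RNP (ribonucleoprotein) fractions. A growing oocyte makes and stores its mRNAs and stops transcription when it is fully grown, so that later protein synthesis depends on which stored mRNAs are recruited to ribosomes. LSM14B belongs to the LSM14 family of RNA-binding proteins, which are found in RNP granules and act on mRNA storage and translation.

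The oocytes were at the germinal vesicle (GV) stage and came from 3-week-old mice, 46 h after 5 IU of PMSG, a hormone that stimulates follicle growth. WT mice were compared with *Lsm14b*-KO mice, homozygous for the tm1a allele, a reporter-tagged knockout-first insertion, on a C57BL/6J background, and oocytes of both genotypes were exposed to cycloheximide to hold ribosomes on the mRNA. Fractions 1 to 10 of lysates from about 1500 oocytes were pooled as RNP and fractions 11 to 28 as polysomes, and 3 libraries of each pool and genotype were made after Smart-seq2 amplification, which copies small amounts of RNA, 12 in all. The labels do not say whether the 3 libraries of a group came from separate gradients or mice, so p-values measure the spread between these libraries, which may be technical.

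Values are FPKM, which relates the fragments of a gene to its transcript length and to the size of the library, so every value is a share of its own pool. Fewer copies per oocyte in a pool and a larger pool around the same copies cannot be told apart. The libraries held an estimated 4.61 to 7.81 M fragments (M, mega) and listed 10566 to 12720 genes above 0. *Lsm14b* was at 11.3 to 34.6 FPKM in WT and at 0 to 0.893 FPKM in KO libraries. The KO polysome library of replicate 2 stood apart, with 34.7% of its summed FPKM in 10 genes against 11.6% to 14.7% elsewhere, mostly through *Mir300* at 170809 FPKM. The 11 oocyte markers were all above 0 in each group, with summed levels of 6209 to 8097 FPKM in RNP and 22774 to 28704 FPKM in polysome libraries. The 9 granulosa and cumulus markers summed to 26.5 to 32 FPKM in WT RNP, 38.7 to 58.8 FPKM in KO RNP, 21.9 to 73.0 FPKM in WT polysome and 77.3 to 96.4 FPKM in KO polysome libraries. They were thus higher in the KO of both pools, with *Foxl2* at 0 in both polysome groups, and their part in the differences between genotypes below was not tested. The haemoglobin genes were at 0 in all libraries, and the stroma and immune lists summed to at most 8.71 FPKM. The endothelium list, at 13.2 to 41.0 FPKM, was carried by *Pecam1*, with *Kdr* at 0 in all 4 groups.

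An exact 0 in this table need not be an absence of RNA. Of 72 ribosomal protein genes, which every cell uses, 32 were listed at 0 in at least 1 library and 8 in all 12. Of the 26 of these genes that averaged 5 FPKM or more, 0 had a library at 0. The zeros of this family thus do not show what a 0 means in a gene above that mean. Values of 0 are given as listed, library by library. Of the 9 transcripts, 7 were listed at 0 in at least 1 library, and *2300002M23Rik* and *Iqcf1* were not. A library at 0 itself makes a difference between groups larger, so this number follows in part from how the transcripts were chosen. Of the 8 transcripts that averaged 5 FPKM or more, 6 had a library at 0. Among the 5407 genes whose mean lay within the range of the 9, 10.3% had such a library.

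**Figure D1:**
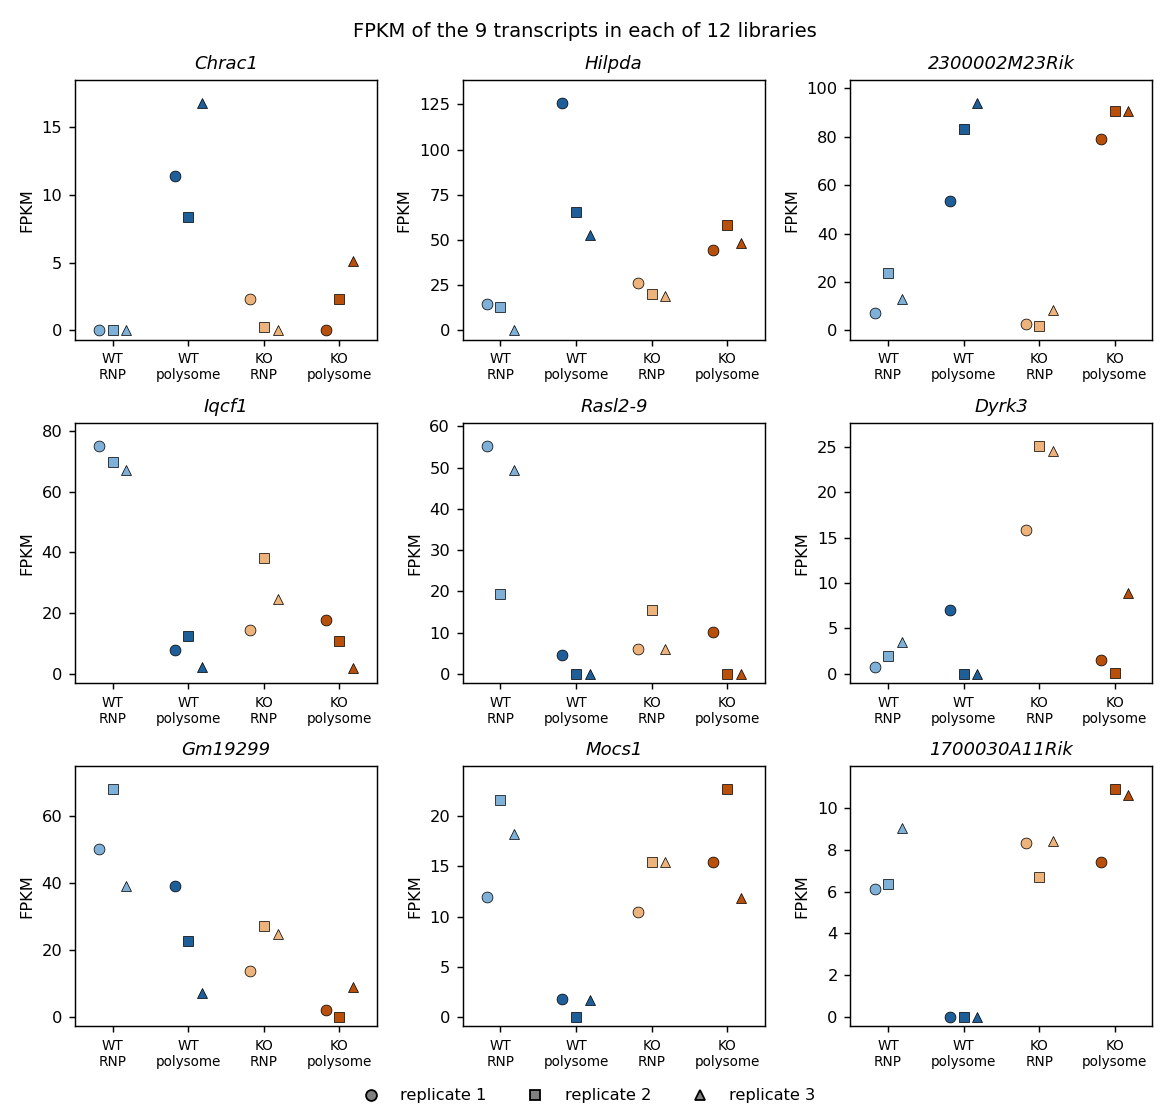
FPKM (vertical axes, each panel on its own scale) of the 9 transcripts in the 12 libraries, by genotype and pool, with 1 point per library and its shape giving the replicate number. *Chrac1* lay at 0 in the 3 WT RNP libraries and *1700030A11Rik* at 0 in the 3 WT polysome libraries, while *Dyrk3* was highest in the KO RNP libraries, at 15.8 to 25.1 FPKM.

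*Chrac1* encodes a histone-fold subunit of the chromatin accessibility complex, a nucleosome-sliding machine built on the ATPase SMARCA5 with BAZ1A. The gene lies on chromosome 15 from 73090410 to 73094075 in the deposited table (mm10). In WT it was listed at 0 in the 3 RNP libraries and at 11.4, 8.37 and 16.8 FPKM in the polysome libraries, so the pools did not overlap. In the KO it stood at 2.32, 0.237 and 0 FPKM in RNP and at 0, 2.32 and 5.13 FPKM in polysomes, and the pools overlapped. The difference of polysomes from RNP on the scale of log2(FPKM + 1), used for all differences below, was 3.67 ± 0.46 (SE, 3 libraries against 3) in WT. In the KO libraries, which had no part in choosing *Chrac1*, it was 0.77 ± 0.71 (adjusted p = 0.462 from limma, adjusted by Benjamini-Hochberg over 9851 genes).

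In polysomes alone, each KO library held less *Chrac1* than each WT library, a difference between genotypes of -2.22 ± 0.67. The KO polysome values stood for an estimated 0, 8 and 16 fragments and the WT values for 46, 35 and 88. Too few RNP libraries reached 1 FPKM for *Chrac1* to be tested there. The other 8 genes of a list of CHRAC and histone-fold genes, among them *Smarca5*, *Baz1a*, *Pole3* and *Pole4*, were all tested between the pools, and none passed in either genotype. Of all genes tested between the pools, 14.7% passed in WT and 29.2% in the KO. The median difference of the list with *Chrac1* was -0.42 in WT and 0.20 in the KO, against -0.09 and -0.04 over all genes tested. Between genotypes, *Pole4*, a histone-fold subunit of DNA polymerase epsilon, was lower in the KO in polysomes (-0.76 ± 0.14, adjusted p = 0.0122 from limma) and in RNP (-0.48 ± 0.11, adjusted p = 0.0144). *Pole3*, which can pair with either protein, was higher in KO RNP (0.91 ± 0.26, adjusted p = 0.0387 from limma). Over all genes, 10.4% passed this test in polysomes and 20.7% in RNP.

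*Hilpda* encodes a small protein of lipid droplets that is induced by hypoxia and inhibits the triglyceride lipase PNPLA2 (ATGL). It lies on chromosome 6 from 29272486 to 29275449. Its WT values were 14.6, 13.2 and 0 FPKM in RNP and 126, 65.7 and 53.0 FPKM in polysomes. Its KO values were 26.3, 20.0 and 18.9 FPKM in RNP and 44.3, 58.5 and 48.6 FPKM in polysomes. Each polysome library lay above each RNP library in both genotypes. The difference was 3.67 ± 0.95 in WT, where it rested in part on the RNP library listed at 0 and fell to 2.37 without that library, WT RNP replicate 3. In the KO libraries it was smaller and tighter, at 1.18 ± 0.19, and passed the test (adjusted p = 0.00155 from limma). With each KO library left out in turn it ranged from 1.07 to 1.32, and it stayed past the threshold in each of 14 alternative settings.

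Between genotypes, *Hilpda* was higher in each KO RNP library than in each WT RNP library. The difference of 1.89 ± 0.89 became 0.59 without WT RNP replicate 3. In polysomes the genotypes overlapped (-0.59 ± 0.31). A list of lipid droplet genes and hypoxia regulators held 20 other genes. In WT, 10 of them were tested and 2 passed, where 14.7% of all genes passed. *Bscl2*, which encodes the droplet assembly factor seipin, was higher in polysomes (1.23 ± 0.23, adjusted p = 0.00962 from limma), and *Hif1a*, the oxygen-regulated transcription factor subunit, was higher in RNP (-1.03 ± 0.25, adjusted p = 0.0282). In the KO, 11 were tested and 3 passed, close to the 29.2% of all genes. *Bscl2* (1.40 ± 0.20, adjusted p = 9.24e-04 from limma) and *Abhd5*, the coactivator of PNPLA2 (1.55 ± 0.23, adjusted p = 9.75e-04), were higher in polysomes, and *Hif1a* was again higher in RNP (-0.79 ± 0.18, adjusted p = 0.0109). The WT difference of *Abhd5* had the same size but did not pass (1.55 ± 0.46, adjusted p = 0.0557 from limma). The median of the list with *Hilpda* was 0.64 in WT and 0.26 in the KO.

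*Plin2*, which coats lipid droplets, differed between genotypes in both pools. It was at 7.40, 5.13 and 1.01 FPKM in WT RNP and at 38.3, 33.9 and 33.4 FPKM in KO RNP. In polysomes it was at 5.26, 10.2 and 4.65 FPKM in WT and at 46.5, 47.8 and 44.6 FPKM in the KO. The KO libraries lay above every WT library of their pool, with differences of 2.95 ± 0.47 in RNP (adjusted p = 0.00275 from limma) and 2.69 ± 0.32 in polysomes (adjusted p = 0.00311). *Abhd5* was also higher in KO RNP (1.19 ± 0.35, adjusted p = 0.0395 from limma), while *Hif1a* (-1.02 ± 0.15, adjusted p = 0.00174) and *Arnt*, the partner of HIF1A (-1.09 ± 0.20, adjusted p = 0.00533), were lower there. *Pnpla2* passed neither test between genotypes, at -0.75 ± 0.23 in polysomes (adjusted p = 0.0725 from limma) and -0.83 ± 0.30 in RNP (adjusted p = 0.0798).

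*2300002M23Rik* is a protein-coding gene on chromosome 17 from 35567483 to 35568945 and was the most abundant of the 9, with a mean of 45.6 FPKM over the 12 libraries. Its KO values were 2.68, 2.01 and 8.50 FPKM in RNP and 79.0, 90.5 and 90.6 FPKM in polysomes. Its WT values were 7.25, 23.7 and 12.9 FPKM in RNP and 53.4, 83.2 and 94.1 FPKM in polysomes. The pools stood far apart in both genotypes, with polysome means of 86.7 ± 6.69 FPKM in the KO and 76.9 ± 21.1 FPKM in WT (SD, n = 3). The ratio of the polysome to the RNP mean was 19.7 in the KO and 5.26 in WT. The difference on the log2 scale was 4.21 ± 0.38 in the KO, which chose it, and 2.42 ± 0.41 in WT, which did not (adjusted p = 0.00546 from limma over 9574 genes). The WT difference passed the test in each of 14 alternative settings, with adjusted p-values from 0.00282 to 0.0335. Between genotypes, the RNP difference was -1.58 ± 0.52 and the polysome difference 0.21 ± 0.22, and the libraries overlapped in both pools.

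*Rasl2-9* is a copy of *Ran* without introns, in 1 exon on chromosome 7 from 5124940 to 5125950. *Ran* encodes the GTPase that gives direction to nuclear transport and helps to order the spindle. Their coding sequences had the same length of 648 bases and were identical at 613 of them (94.6%). The opening 180 coding bases of both transcripts (GENCODE M21 on GRCm38) are shown because reads from one copy can align to the other, with capitals at the 13 bases that differ. The *Rasl2-9* coding sequence runs on the minus strand from 5125929 to 5125282, and that of *Ran* on the plus strand of chromosome 5 between 129020539 and 129022815, with introns.
Rasl2-9: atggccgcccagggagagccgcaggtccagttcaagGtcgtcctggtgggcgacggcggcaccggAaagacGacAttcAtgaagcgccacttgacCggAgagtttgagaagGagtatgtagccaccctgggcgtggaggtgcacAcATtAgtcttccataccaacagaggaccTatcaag
Ran: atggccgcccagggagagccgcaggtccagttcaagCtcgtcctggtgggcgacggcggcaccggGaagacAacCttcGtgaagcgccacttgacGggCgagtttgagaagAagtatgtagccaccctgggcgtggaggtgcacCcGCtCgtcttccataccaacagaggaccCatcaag

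The longest stretch shared without a difference was 77 bases, shorter than the 150-base reads, so each full-length read within the coding sequence crossed at least 1 difference. Matches to *Rasl2-9* of 150 bases or more at 90% identity or more were found in 2 other genes, the longest in *Ran*. How the authors' alignment divided reads among such copies was not given in the sources used here, and the *Rasl2-9* values are uncertain for that reason. *Rasl2-9* was at 55.3, 19.4 and 49.5 FPKM in WT RNP and at 4.56, 0 and 0 FPKM in WT polysomes. KO libraries held 6.04, 15.5 and 6.09 FPKM in RNP and 10.2, 0 and 0 FPKM in polysomes. The WT pools did not overlap, whereas KO polysome replicate 1 lay within the range of the KO RNP libraries. The difference was -4.45 ± 0.73 in WT and -2.07 ± 0.87 in the KO (adjusted p = 0.106 from limma). Without KO polysome replicate 1 the KO difference was -3.23 (adjusted p = 0.00164 from limma), and without replicate 2 or replicate 3 of that group it was -1.49 (adjusted p = 0.259 and 0.261). It passed in 1 of 14 alternative settings.

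*Rasl2-9* was lower in each KO RNP library than in each WT RNP library, with a difference of -2.05 ± 0.45, while *Ran* was higher. *Ran* was at 17.2, 10.4 and 6.56 FPKM in WT RNP and at 25.2, 31.3 and 28.4 FPKM in KO RNP. In polysomes it was at 12, 13.8 and 18.1 FPKM in WT and at 50.4, 50.0 and 58.6 FPKM in the KO. Its difference between genotypes was 1.33 ± 0.31 in RNP (adjusted p = 0.0161 from limma) and 1.80 ± 0.24 in polysomes (adjusted p = 0.00405). *Ran* was also higher in the polysome than in the RNP pool of the KO (0.88 ± 0.16, adjusted p = 0.00284 from limma). Of the 7 other genes of the Ran cycle, 6 were tested in the WT pools and all 7 in the KO pools. *Ranbp2*, a nucleoporin that binds Ran, was higher in polysomes in WT (1.75 ± 0.46, adjusted p = 0.0356 from limma) and in the KO (2.15 ± 0.40, adjusted p = 0.00378). *Rangap1*, the GTPase activator of Ran, was higher in polysomes than in RNP in the KO (1.60 ± 0.28, adjusted p = 0.00246 from limma). Its WT difference was of like size but did not pass (1.78 ± 0.57, adjusted p = 0.0730 from limma). Apart from *Rasl2-9*, which was chosen on the WT pools, no gene of the list passed the test towards the RNP pool. Of all genes, 6.72% passed in that direction in WT and 13.8% in the KO. Towards polysomes, 7.97% of all genes passed in WT and 15.5% in the KO. The median of the list with *Rasl2-9* was 0.23 in WT and 0.06 in the KO.

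*Iqcf1* encodes a protein with an IQ motif, a binding site for calmodulin, and is known from sperm. It lies on chromosome 9 from 106499965 to 106502250. It was at 75.1, 69.8 and 67.1 FPKM in WT RNP and at 7.75, 12.5 and 2.14 FPKM in WT polysomes. The KO values were 14.4, 38.0 and 24.7 FPKM in RNP and 17.8, 10.9 and 1.83 FPKM in polysomes. The WT pools stood apart, with an RNP mean 9.48 times the polysome mean, and the KO pools overlapped, with an RNP mean 2.53 times the polysome mean. The difference was -3.32 ± 0.48 in WT and -1.54 ± 0.63 in the KO (adjusted p = 0.102 from limma). The KO value was -2.10 without KO polysome replicate 1 (adjusted p = 0.0338 from limma) and -0.74 without KO polysome replicate 3 (adjusted p = 0.203). Each KO RNP library lay below each WT RNP library (-1.53 ± 0.29), and the polysome libraries of the genotypes overlapped (0.26 ± 0.78).

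Of the 4 other *Iqcf* genes, *Iqcf5* alone reached the level needed for testing. It was at 89.2, 186 and 167 FPKM in WT RNP and at 69.4, 58.3 and 53.7 FPKM in WT polysomes. In the KO it was at 241, 283 and 268 FPKM in RNP and at 37.7, 84.9 and 92.5 FPKM in polysomes. Like *Iqcf1* it was higher in RNP, by -1.21 ± 0.27 in WT (adjusted p = 0.0200 from limma) and by -1.96 ± 0.29 in the KO (adjusted p = 0.00101). Unlike *Iqcf1* it was higher in KO than in WT RNP (0.90 ± 0.24, adjusted p = 0.0264 from limma). *Iqcf3*, *Iqcf4* and *Iqcf6* were at or below 0.544 FPKM in each library.

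**Figure D2:**
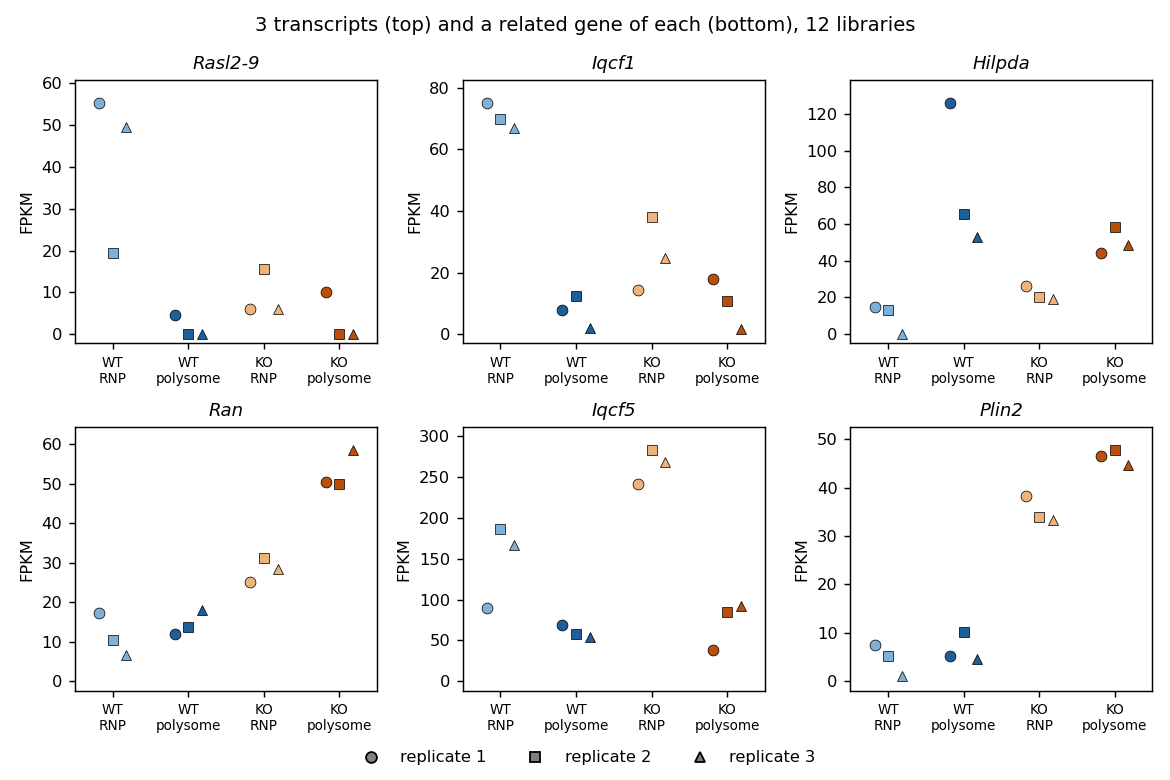
FPKM (vertical axes) of *Rasl2-9*, *Iqcf1* and *Hilpda* (top row) and of *Ran*, *Iqcf5* and *Plin2* (bottom row) in the 12 libraries, with 1 point per library and its shape giving the replicate number. In the RNP pool, *Rasl2-9* and *Iqcf1* lay lower in the KO than in WT, while *Ran*, *Iqcf5* and *Plin2* lay higher.

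*Dyrk3* encodes a dual-specificity kinase that dissolves RNA-containing condensates such as stress granules. It lies on chromosome 1 from 131128439 to 131138234. It was low in WT, at 0.725, 1.91 and 3.47 FPKM in RNP and at 7.01, 0 and 0 FPKM in polysomes, and the pools overlapped. The KO libraries held 15.8, 25.1 and 24.5 FPKM in RNP and 1.47, 0.105 and 8.88 FPKM in polysomes, without overlap. The difference was -2.90 ± 0.67 in the KO. In WT, which did not choose it, it was -0.50 ± 0.85 (adjusted p = 0.743 from limma), and no difference was detectable at these levels. Each KO RNP library lay above each WT RNP library, a difference of 2.99 ± 0.39 (2.63 to 3.32 with each library left out in turn), while its polysome values overlapped (0.58 ± 1.01). No other gene of the 8 DYRK and HIPK kinases listed passed the test between pools, where 4 were tested in WT and 3 in the KO. With so few tested this sets *Dyrk3* apart from none of them, as 14.7% of all genes passed in WT and 29.2% in the KO. *Dyrk1a* differed by -0.72 ± 0.22 in WT (adjusted p = 0.0583 from limma). The median of the list with *Dyrk3* was -0.50 in WT and -0.27 in the KO, against -0.09 and -0.04 over all genes tested. The WT median was the value of *Dyrk3* itself, and the KO median includes the difference that chose it. *Hipk2* was lower in KO than in WT RNP (-0.72 ± 0.21, adjusted p = 0.0355 from limma).

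*Gm19299* is annotated as a long intergenic non-coding RNA on chromosome 9, from 67133559 to 67163788 in the deposited table. It was at 50.1, 68.1 and 39.1 FPKM in WT RNP and at 39.1, 22.6 and 7.05 FPKM in WT polysomes. KO libraries held 13.8, 27.3 and 24.7 FPKM in RNP and 2.13, 0 and 9.07 FPKM in polysomes. Both KO groups thus lay lower than the WT group of the same pool, with a difference of -1.24 ± 0.29 in RNP, where the genotypes did not overlap, and of -2.64 ± 0.87 in polysomes, where they did. The difference between pools was -2.80 ± 0.71 in the KO and -1.41 ± 0.53 in WT (adjusted p = 0.114 from limma), and the WT pools met at 39.1 FPKM. Without WT polysome replicate 1 the WT difference was -1.92 (adjusted p = 0.0339 from limma), and without WT polysome replicate 3 it was -0.76 (adjusted p = 0.170).

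*Mocs1* encodes the enzymes of the opening step of molybdenum cofactor synthesis, which turn GTP into cyclic pyranopterin monophosphate. It lies on chromosome 17 from 49428362 to 49455430. In RNP it was at 12, 21.6 and 18.2 FPKM in WT and at 10.5, 15.4 and 15.4 FPKM in the KO. In polysomes it was at 1.80, 0 and 1.71 FPKM in WT and at 15.4, 22.7 and 11.9 FPKM in the KO. The RNP levels of the genotypes overlapped, whereas each KO polysome library lay above each WT polysome library. The difference between pools was -3.18 ± 0.53 in WT and 0.23 ± 0.28 in the KO, and the change of the ratio between genotypes, the interaction of genotype and pool that chose it, was 3.41 ± 0.59. Leaving out each library in turn gave 2.93 to 3.67, and pseudocounts of 5 and 0.1 gave 2.03 and 4.84. The difference between genotypes was 3.12 ± 0.53 in polysomes and -0.29 ± 0.28 in RNP.

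A list of molybdenum cofactor genes held 11 others, for its synthesis enzymes and the enzymes that use the cofactor. In WT, 7 of them were tested and 2 passed, beside 14.7% of all genes. *Nfs1*, the cysteine desulfurase that supplies sulfur, was higher in polysomes (1.28 ± 0.30, adjusted p = 0.0231 from limma), and *Mocs3*, which transfers that sulfur, was higher in RNP (-1.73 ± 0.46, adjusted p = 0.0384). *Mocs3* was at 1.38, 2.84 and 2.95 FPKM in WT RNP and listed at 0 in the other 9 libraries. It was also lower in KO than in WT RNP (-1.73 ± 0.39, adjusted p = 0.0145 from limma). *Mocs3* reached the level needed for testing only through the WT RNP libraries, where it was high. The filter thus fixed the direction of both tests, and their p-values are no independent support. 1 of the 2 passes in WT rests on it. In the KO, 6 were tested and 3 passed, beside 29.2% of all genes. *Nfs1* (1.41 ± 0.23, adjusted p = 0.00171 from limma) and *Mocs2*, the molybdopterin synthase gene (0.95 ± 0.22, adjusted p = 0.0112), were higher in polysomes, and *Xdh*, which encodes xanthine dehydrogenase, was higher in RNP (-0.58 ± 0.16, adjusted p = 0.0212). The test of the ratio, which chose *Mocs1*, was passed by no other gene of the list. Only 0.237% of all genes passed it, so this does not set *Mocs1* apart from the list. The median difference of the list with *Mocs1* was -0.86 in WT and 0.23 in the KO, against -0.09 and -0.04 over all genes tested. The KO median was the value of *Mocs1* itself.

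*1700030A11Rik* is annotated as an antisense RNA on chromosome 17, from 28905265 to 28906771 (GENCODE M21). It lies inside the protein-coding gene *4930539E08Rik* of the opposite strand and shares 88 of its 888 exon bases with it. The deposited table gives both symbols the locus from 28896393 to 28915324. The sources used here do not say whether reads were assigned by strand, so reads from the shared bases cannot be told apart. *1700030A11Rik* was at 6.14, 6.38 and 9.02 FPKM in WT RNP and was listed at 0 in the 3 libraries of WT polysomes. The KO values were 8.34, 6.71 and 8.40 FPKM in RNP and 7.40, 10.9 and 10.6 FPKM in polysomes. The 9 libraries above 0 thus lay between 6.14 and 10.9 FPKM, or an estimated 29 to 43 fragments. The change of the ratio was 3.27 ± 0.46 (3.12 to 3.43 with each library left out in turn). The difference between genotypes was 3.39 ± 0.42 in polysomes and 0.12 ± 0.28 in RNP. *4930539E08Rik* was above 0 in the WT polysome libraries, at 7.21, 12.4 and 0.569 FPKM, and its pools overlapped in both genotypes.

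For the 7 transcripts picked from 1 genotype, the pools of the other genotype are libraries that the choice did not use. The sign there was the same in 7 of 7, and 2 passed the test. Of the 8999 genes tested in both genotypes, 73.7% had the same sign in both. Those genes had differences of any size, whereas the 7 were picked for large ones, so the shares come from unlike sets. For *Dyrk3* the WT value of -0.50 ± 0.85 was within its error, and it was 0.00 without WT polysome replicate 2 or replicate 3. Its mean FPKM in WT went the other way, at 2.34 in polysomes and 2.04 in RNP, so its sign there is not settled. Of the 4 picked from the WT pools, 1 (*Hilpda*) passed in the KO, where 29.2% of 9851 genes passed, 15.5% higher in polysomes and 13.8% higher in RNP. Of the 3 picked from the KO pools, 1 (*2300002M23Rik*) passed in WT, where 14.7% of 9574 genes passed, 7.97% higher in polysomes and 6.72% higher in RNP. The test of the ratio, which chose *Mocs1* and *1700030A11Rik*, was passed by 26 of 10949 genes, or 0.237%. The size in the other genotype was smaller for each of the 7, as a choice of extremes also gives, and the change of the ratio carries no test for them here.

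**Figure D3:**
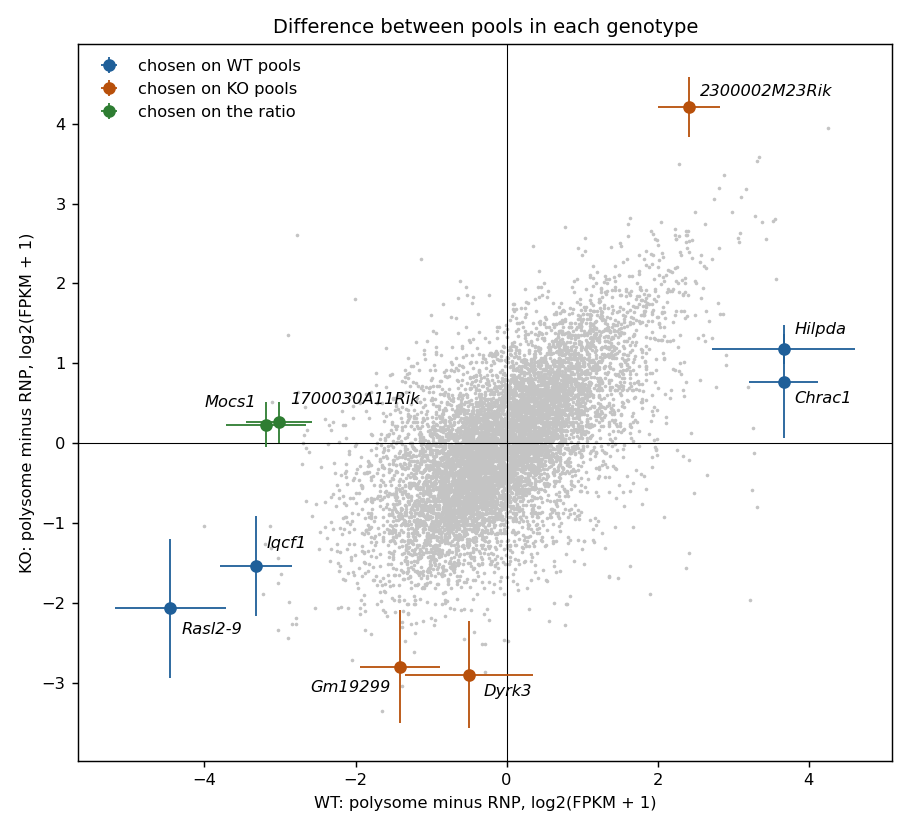
Difference of polysomes from RNP on the scale of log2(FPKM + 1) in WT (horizontal axis) and KO (vertical axis) for the 8999 genes tested in both genotypes (grey) and the 9 transcripts (coloured by the comparison that chose them, with SE bars). The 7 transcripts chosen on WT or KO pools lie in the quadrants of equal sign, and *Mocs1* and *1700030A11Rik* lie near 0 in the KO and near -3 in WT, at -3.18 and -3.01.

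The 9 transcripts are not the full set of extremes. Candidates had passed the test, averaged 5 FPKM or more over the libraries compared and had the same sign in the 3 pairs of libraries with equal replicate numbers, and all 9 were among the 3 largest differences in a direction of a comparison. Other genes of those ranks are not described here. They were *Atp6ap2* at 4.26 and *Zfp784* at -4.00 in WT, *Atp6ap2* at 3.94, *Ldhb* at 3.58 and *Hist1h2ba* at -3.04 in the KO, and *Zfp784* at 2.97, *Tmsb4x* at -5.20, *Cetn2* at -1.76 and *Atp5g1* at -1.69 for the ratio. Just inside and outside these ranks lay *Hilpda* at 3.67 and *Gpx6* at 3.57 in WT, and *Iqcf1* at -3.32 and *Mocs1* at -3.18 on the RNP side. In the KO, *Ldhb* was followed by *Nlrp5* at 3.53, and *Gm19299* at -2.80 by *A430046D13Rik* at -2.71. For the ratio, *Zfp784* was followed after a wide gap by *Actb* at 0.85, and *Atp5g1* by *Sdhaf4* at -1.65.

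Differences between genotypes share their libraries with the comparisons that chose the transcripts and carry no test here. In RNP, *Dyrk3* and *Hilpda* were higher in the KO, and *2300002M23Rik*, *Iqcf1*, *Rasl2-9* and *Gm19299* had differences between -2.05 and -1.24. In polysomes, *Mocs1* and *1700030A11Rik* were higher in the KO by 3.12 and 3.39, and *Chrac1* and *Gm19299* had differences of -2.22 and -2.64. Where both pools have a value, the difference between genotypes was larger in RNP than in polysomes for *Hilpda*, *Dyrk3*, *2300002M23Rik* and *Iqcf1*, and larger in polysomes for *Mocs1*, *1700030A11Rik* and *Gm19299*. The change of the ratio was -2.48 ± 1.09 for *Hilpda* (-1.18 without WT RNP replicate 3), -2.40 ± 1.20 for *Dyrk3*, 1.79 ± 0.62 for *2300002M23Rik* and 1.78 ± 0.90 for *Iqcf1*. It was -2.90 ± 0.88 for *Chrac1* and 2.38 ± 1.28 for *Rasl2-9*. *Gm19299* was lower in both pools, and its ratio changed by -1.40 ± 1.01, a value close to its error.

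**Figure D4:**
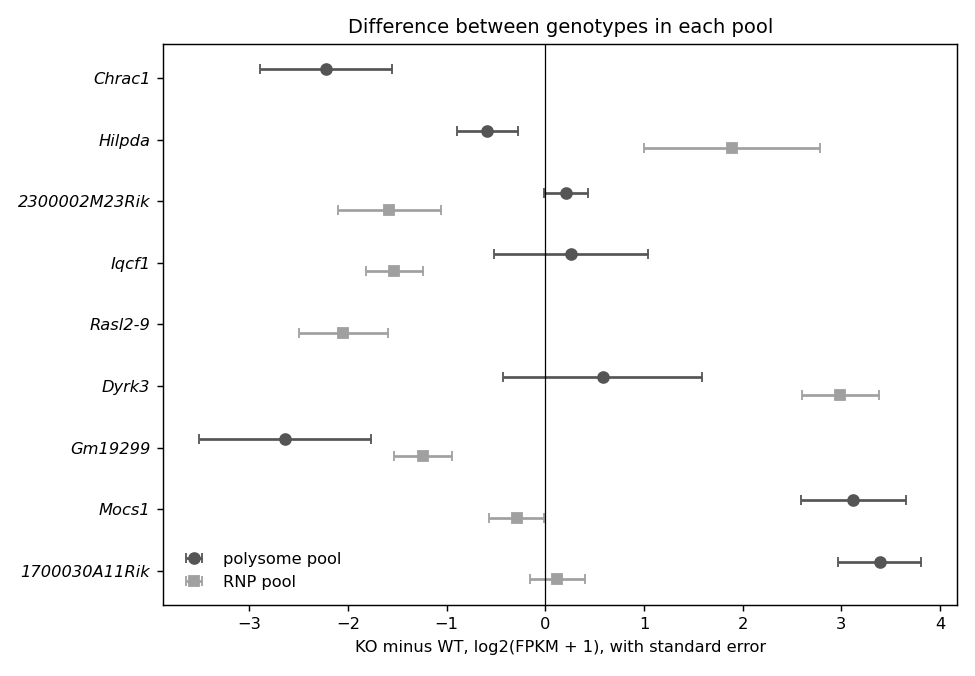
Difference of KO from WT on the scale of log2(FPKM + 1) (horizontal axis) for the 9 transcripts (rows) in the polysome pool (circles) and the RNP pool (squares), with SE bars from 3 libraries against 3. *Rasl2-9* has no polysome value and *Chrac1* no RNP value, because fewer than 3 libraries reached 1 FPKM there, and *Mocs1* and *1700030A11Rik* lie above 3 in polysomes and within 0.29 of 0 in RNP.

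The transcripts were short. For each gene the longest annotated transcript of the gene's own type was taken, a protein-coding one for a coding gene. These ran from 613 bases for *Iqcf1* to 3164 bases for *Dyrk3*, with a median of 1013, and 8 of 9 were below the median of 2976 bases over 10504 genes with an annotated transcript. On such lengths 1 FPKM stood for few fragments, an estimated 1.91 to 3.23 for *Iqcf1* and 13.7 to 23.2 for *Dyrk3*. The spread between replicates was wide. Its residual SD in the fit of all 12 libraries was above the median of all genes, 0.46 on the log2 scale, in 8 of 9, with *1700030A11Rik* at 0.21 as the exception. The mean level over the 12 libraries ran from 3.88 FPKM for *Chrac1* through 6.16 for *1700030A11Rik*, 7.41 for *Dyrk3*, 12.2 for *Mocs1*, 13.9 for *Rasl2-9*, 25.3 for *Gm19299*, 28.5 for *Iqcf1* and 40.8 for *Hilpda* to 45.6 FPKM for *2300002M23Rik*. Neighbours in this order had overlapping libraries. Apart from *Rasl2-9*, no transcript of the 9 had a match of 150 bases at 90% identity in another gene.

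Likeness of pattern was measured as the root mean square distance between the 4 group means of log2(FPKM + 1), each gene centred on its own mean, among genes that averaged 5 FPKM or more. *Mocs1* and *1700030A11Rik* were near neighbours of each other, at a distance of 0.18, next to *Ap1ar* (0.20 from *Mocs1*) and *Zfp869* (0.16 from *1700030A11Rik*). *Iqcf1* was the gene most like *Rasl2-9*, at 0.46, and was itself closest to *Plekho1* (0.20) and *Chmp1b* (0.26). *Hilpda* was closest to *Snhg5* (0.26) and *Gpx6* (0.31), *2300002M23Rik* to *Fmr1nb* (0.30) and *Rgn* (0.52), *Gm19299* to *Fam72a* (0.23) and *Smco4* (0.24), and *Chrac1* to *A730043L09Rik* (0.36) and *Amd2* (0.43). For *Dyrk3* the closest were *Bc1* (0.24), which was above 0 in 1 library only, and *Tmem53* (0.44), at means of 45.9 ± 10.4 FPKM in KO RNP and 14.1 ± 8.0 FPKM in WT RNP (SD, n = 3). *Mocs1* and *1700030A11Rik* were chosen in the same direction of the ratio, and *Iqcf1* and *Rasl2-9* on the RNP side of the WT pools. Their likeness thus follows in part from the choice. The distances rest on 4 groups and describe the pattern only.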

How the data were processed

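The authors trimmed the reads, aligned them with TopHat2 2.0.13 to the mm10 genome and used Cufflinks 2.2.1 to derive an FPKM for each gene symbol and library. The deposited FPKM hold no read counts. The fold changes and p-values that the authors calculated with Cuffdiff are also deposited and were not used here. The densest sucrose was given differently in the labels and the methods, and so was the library kit.

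Differences on log2(FPKM + 1) were fitted with limma 3.58.1 in R 4.3.3 (empirical Bayes, intensity trend) on genes with at least 1 FPKM in at least 3 libraries of the comparison, with Benjamini-Hochberg adjustment over all genes tested and a threshold of 0.05. The models were tested on simulated data. The transcripts and gene lists were chosen with earlier results of these data known. The naming rule took, in each direction, the 3 largest changes past the test that had the same sign in all same-numbered pairs and averaged 5 FPKM or more. Adjusted p-values are printed for a transcript only in libraries its choice did not use.

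For depth, the steps between low FPKM values were read as whole fragments, with 200 bases taken off each transcript length. Between 50.0% and 67.6% of those values lay within 0.1 of a whole fragment, so fragment numbers are rough and no count test was run. Positions and transcripts came from GENCODE M21, and transcripts were compared with blastn 2.17.0. A planned comparison of proteins was not made. Python 3.11.15, pandas 2.3.3, numpy 2.4.6 and matplotlib 3.10.9 were used. Alternatives were pseudocounts of 0.1 and 5, no filter, a filter at 5 FPKM, rescaling to the same median, quantile normalization, a replicate block, no intensity trend, and each replicate left out in turn.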

Additional observations from a re-analysis of the deposited data

Results flagged for a closer look

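The polysome-to-RNP ratio differed between genotypes for *Mocs1*, by 3.41 on the log2 scale, and for *1700030A11Rik*, by 3.27. Both were at or near 0 in the WT polysome libraries and not in the 9 other libraries. This comparison chose both transcripts, so the values are a description.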

How the results depend on the processing

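Of 635 values of the 9 transcripts under the alternatives, 607 stayed on their side of the threshold or within the spread between replicates, 3 passed the threshold where the reported fit did not (each without 1 library, given with the transcript), and 25 moved by more than that spread, nearly all under other pseudocounts. No called value changed sign. With pseudocounts of 5 and 0.1 the WT difference of *Chrac1* ran from 1.75 to 6.88, so the size of differences against libraries at 0 was set by the pseudocount. The genes called between the WT pools, 1406 in all, were 728 without the intensity trend and 780 to 1212 with each replicate left out, lowest without WT RNP replicate 3. The 26 genes called for the ratio were 6 without the trend, 0 with the replicate block (limma, 1129 at an unadjusted p under 0.05) and 0 to 46 with each replicate left out, 0 without KO RNP replicate 2. In the polysome pool, 989 genes differed between genotypes, 545 without the filter, 508 without the trend and 383 to 790 with each replicate left out. In the RNP pool, 2057 differed, and 1255 to 1911 with each replicate left out. Same-numbered libraries did not deviate together (correlations between -0.021 and 0.026), so the numbers gave no sign of pairing. Such a check cannot exclude that same-numbered pools came from 1 gradient. The replicate block gave 1165 genes in the WT and 2720 in the KO pools, and 672 and 1799 between genotypes in polysomes and RNP. Causes were not tested. Depth limits the values that rest on few fragments, such as those of *Chrac1*, of *1700030A11Rik*, and of *Rasl2-9* in polysomes.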
